A study of Mus musculus with 10 samples.

Results

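Collagens and the enzymes that modify them were described in RNA-seq of mouse acute myeloid leukaemia (AML) cells. The 10 genes were chosen by name, out of 38215 genes listed, and were Col4a1, Col4a2, Col1a1, Col1a2, the collagen chaperone gene Serpinh1, the prolyl hydroxylase genes P4ha1, P4ha2 and P4hb, and the lysyl hydroxylase genes Plod1 and Plod3. The choice was made with results of the comparison below known, so the values of these 10 genes are a description and carry no p-value. The other gene lists below were also chosen with earlier results of these data known. Their counts, adjusted p-values and calls under other settings therefore describe this comparison and are not independent support. The leukaemia had been started by expressing AML1-ETO and NrasG12D from the GFP-marked retrovirus MSCV-IRES-GFP in lineage-depleted bone marrow cells. It was grown first in Rag2-/-γc-/- mice and then passed on to new recipients, and GFP+ spleen cells of those secondary recipients were sequenced. One group was 5 C57BL/6J recipients, which are immunocompetent (libraries 1, 3, 4, 5 and 6 in the labels), and the other was 5 Rag2-/-γc-/- recipients, which lack T, B and NK cells but keep their own myeloid and stromal cells (libraries 7 to 11). Both groups therefore carried leukaemia with the same oncogenes and the same first passage in immunodeficient mice. The labels give no age or sex of the mice and do not say how many primary leukaemias supplied the recipients, so the spread within a group may be partly technical and may not cover differences between leukaemias.

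Collagens are secreted proteins of 3 chains wound into a triple helix. The chains of type IV collagen, encoded most widely by Col4a1 and Col4a2, form the network of basement membranes, while those of type I collagen, Col1a1 and Col1a2, form the fibrils of bone and connective tissue. In the endoplasmic reticulum (ER) prolyl 4-hydroxylase, a complex of a catalytic alpha chain (P4ha1 or P4ha2) and the beta chain P4hb, stabilises the helix, lysyl hydroxylases (Plod1, Plod3) prepare it for glycosylation and crosslinks, and HSP47, the product of Serpinh1, binds the folded helix. P4hb is also protein disulfide isomerase, a general folding enzyme of secretory cells. Monocytes and macrophages bind collagen through integrins and other receptors.

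The libraries held 28157745 to 62461126 expected counts, and 13966 genes had enough counts to be tested. They were not alike within a group. On the first principal component (51.2% of the variance) Rag2-/-γc-/- libraries 7, 8 and 9 scored 39.3 to 52.1, libraries 10 and 11 -9.91 and 2.26, and the C57BL/6J libraries -41.8 to -15.4. C57BL/6J library 1 stood apart on the third (13.8%), at -41.9 against 8.21 to 16.7 in the other 4 of its group, and mitochondrial genes took 1.34% of its counts against 2.91 to 4% in the other 9 libraries. Among 7 leucocyte genes, Ptprc, which encodes CD45, was at 410 to 743 CPM (TMM-scaled CPM, counts relative to library size) over all libraries. The myeloid integrin gene Itgam was at 398 to 1160 CPM, whereas the granule enzyme gene Mpo reached at most 0.796 CPM. The groups were not alike in this list. Means in C57BL/6J against Rag2-/-γc-/- libraries were 4.88 against 0.252 CPM for Kit and 32.1 against 70.3 CPM for Csf1r (edgeR adjusted p = 7.19e-05 and 0.0341). Itgam averaged 578 against 942 CPM (edgeR adjusted p = 0.0553). In all 28.6% of the list had an adjusted p under 0.05, against 7.79% of all tested genes. Below, each difference is C57BL/6J minus Rag2-/-γc-/-, on the log2 scale with its standard error (SE) from edgeR.

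Col4a1 and Col4a2 lie head to head on chromosome 8, and the windows around their start sites are shown because the pair varied together. Col4a1 (ENSMUSG00000031502, 11198423 to 11312826 on GRCm38, minus strand) and Col4a2 (ENSMUSG00000031503, 11312805 to 11449287, plus strand) overlap by 22 bases in the deposited table. The windows, from RefSeq on GRCm38.p6, run from 250 bases before to 50 bases after each start, chr8:11312777-11313076 on the minus strand for Col4a1 and chr8:11312555-11312854 on the plus strand for Col4a2, 5′ to 3′. The 78 bases in capitals are the stretch that both windows hold, read from opposite strands.
Col4a1: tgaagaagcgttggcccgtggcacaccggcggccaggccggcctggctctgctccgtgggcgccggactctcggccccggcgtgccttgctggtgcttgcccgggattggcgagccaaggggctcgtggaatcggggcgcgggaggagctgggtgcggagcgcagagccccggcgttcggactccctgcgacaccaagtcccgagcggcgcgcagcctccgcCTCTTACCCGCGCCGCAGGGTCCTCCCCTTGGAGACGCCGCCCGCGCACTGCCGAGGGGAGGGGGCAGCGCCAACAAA
Col4a2: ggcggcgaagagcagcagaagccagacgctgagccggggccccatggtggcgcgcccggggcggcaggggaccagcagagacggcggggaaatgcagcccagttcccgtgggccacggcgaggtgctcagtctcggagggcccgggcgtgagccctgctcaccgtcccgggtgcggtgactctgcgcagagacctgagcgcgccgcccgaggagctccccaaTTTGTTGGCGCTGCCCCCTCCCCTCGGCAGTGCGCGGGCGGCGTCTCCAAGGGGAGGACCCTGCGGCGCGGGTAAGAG
Bases G and C made up 74% and 73.7% of these windows, against a median of 52.7% over all 32817 RefSeq windows of this length. The GC box GGGCGG, searched on both strands, occurred once in the first and 3 times in the second. The match in the first window and 1 of those in the second are the same site, in the shared stretch. This motif was in 35.6% of all windows, and 19.5% held 2 or more matches. CCAAT, also searched on both strands, occurred once in each and in 37.4% of all windows. The shares over all windows were not matched for G and C content.

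Of the prolyl hydroxylase alpha chain genes, P4ha2 differed far more between the groups than P4ha1, and the windows of both are given for comparison (RefSeq, GRCm38.p6, plus strand, chr10:59323046-59323345 and chr11:54100674-54100973). Capitals mark ACGTG, the core letters bound by hypoxia-inducible factors, on either strand.
P4ha1: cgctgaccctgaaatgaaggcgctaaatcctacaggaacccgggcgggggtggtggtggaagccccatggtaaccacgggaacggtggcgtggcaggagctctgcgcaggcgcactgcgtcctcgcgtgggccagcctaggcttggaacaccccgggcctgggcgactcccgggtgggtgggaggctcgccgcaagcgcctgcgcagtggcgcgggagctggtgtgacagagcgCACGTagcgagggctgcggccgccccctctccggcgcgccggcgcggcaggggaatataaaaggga
P4ha2: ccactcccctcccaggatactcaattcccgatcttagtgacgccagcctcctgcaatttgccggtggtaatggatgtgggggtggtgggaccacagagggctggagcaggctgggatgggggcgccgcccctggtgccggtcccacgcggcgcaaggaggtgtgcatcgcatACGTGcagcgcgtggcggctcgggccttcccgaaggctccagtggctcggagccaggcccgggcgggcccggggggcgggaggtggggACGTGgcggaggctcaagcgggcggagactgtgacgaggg
ACGTG occurred once in the window of P4ha1 and 2 times in that of P4ha2. The windows of P4hb and Col1a2 also held 2 matches each, so this number is not particular to P4ha2. ACGTG was present in 6 of the 9 windows found for the 10 genes (Col1a1 had none in the RefSeq table) and in 19.6% of all windows, while the share with 2 or more matches was 8.21%. Bases G and C made up 70.3% of the P4ha1 window and 70.3% of the P4ha2 window, against a median of 52.7% over all windows. The shares over all windows were not matched for this. Col4a1, Col4a2 and Plod1 had no match in these windows. The RefSeq start of P4ha2 lies 829 bases downstream of the gene start in the deposited table. The consensus ER stress element was in none of the 9 windows and in 0.119% of all. These matches describe letters only, and no binding was measured.

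Type IV collagen was the collagen with abundant transcripts in these libraries, and both Col4a1 and Col4a2 were lower in C57BL/6J recipients. Col4a1 was at 230, 337, 366, 259 and 292 CPM in C57BL/6J libraries 1, 3, 4, 5 and 6, and at 600, 520, 536, 451 and 479 CPM in Rag2-/-γc-/- libraries 7 to 11. The groups did not overlap, and the lowest Rag2-/-γc-/- library (10) lay above the highest C57BL/6J library (4). The means were 297 ± 55.7 against 517 ± 56.9 CPM (SD, n = 5 each), a difference of -0.80 ± 0.13. Col4a2 was at 312, 475, 489, 305 and 344 CPM in the C57BL/6J libraries and at 981, 731, 785, 524 and 628 CPM in the Rag2-/-γc-/- libraries. Again the groups did not overlap, with means of 385 ± 89.5 and 730 ± 172 CPM and a difference of -0.92 ± 0.19. Within each group the order of libraries was similar for both genes: libraries 3 and 4 were the highest of the C57BL/6J group, and 7 to 9 the highest of the Rag2-/-γc-/- group. For 4 of the 10 genes (Col4a1, Col4a2, Col1a1 and P4ha2) the C57BL/6J and Rag2-/-γc-/- values were fully separate (2 higher and 2 lower), against 8.50% of all tested genes (4.13% higher and 4.37% lower), and of the 9 genes tested 3 were lower and 2 higher by edgeR's quasi-likelihood test with Benjamini-Hochberg adjustment at 0.05, against 7.79% of all tested genes in either direction (4.47% lower, 3.32% higher). Because the genes were chosen with this contrast known, nothing is read from these counts.

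**Figure D1:**
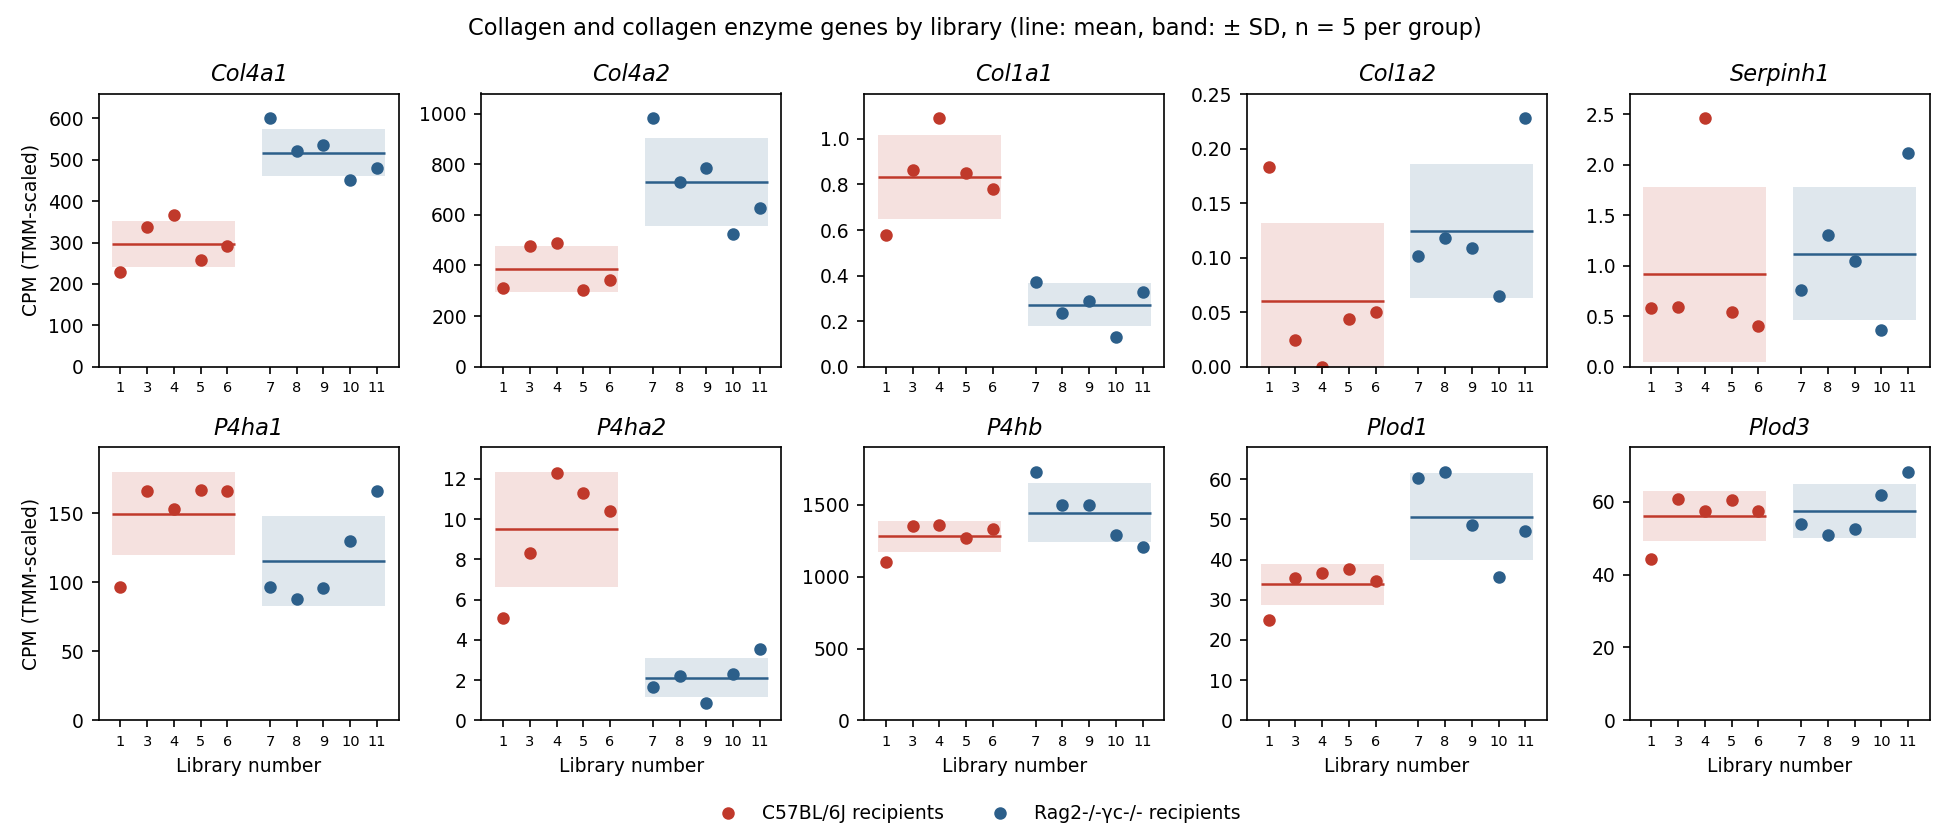
TMM-scaled CPM (vertical axes, linear from 0) of the 10 genes in each library (horizontal axes, library number), C57BL/6J recipients in red and Rag2-/-γc-/- recipients in blue, with lines for group means and bands for ± SD (n = 5). Col4a1 and Col4a2 are lower, and Col1a1 and P4ha2 higher, in every C57BL/6J library than in any Rag2-/-γc-/- library, while the other 6 genes overlap between the groups.

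The balance between the type IV chains was similar in group means but not alike within the Rag2-/-γc-/- group. The ratio of Col4a1 to Col4a2 expected counts was 0.778 ± 0.0646 in C57BL/6J and 0.726 ± 0.0932 in Rag2-/-γc-/- libraries (SD, n = 5 each), with ranges of 0.711 to 0.848 and 0.612 to 0.861 that overlap. Rag2-/-γc-/- libraries 7, 8 and 9 were at 0.612, 0.712 and 0.682, and libraries 10 and 11 at 0.861 and 0.763. This ratio is of counts and not of molecules, since the exons of Col4a1 cover 7464 bases and those of Col4a2 6619. After centring each gene on its mean, the log2 profiles of the pair differed by 0.119 on average over the 10 libraries, the closest pair among the 9 tested genes. The next closest were Col4a1 and Plod1 (0.173), and the farthest Col4a2 and P4ha2 (1.549). Over 8970 genes averaging at least 5 CPM, the profiles most like that of Col4a1 were those of the nucleoside transporter gene Slc29a3 (0.088), Dcstamp (0.105), which is needed for fusion of osteoclasts and macrophages, and Usp6nl (0.111). Those most like Col4a2 were the calcium pump gene Atp2a3 (0.117), Tmem154 (0.118) and Col4a1 itself.

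The difference in type IV collagen kept its sign with either subset of Rag2-/-γc-/- libraries left out, and its size depended on which. Without libraries 10 and 11 it was -0.89 ± 0.15 for Col4a1 and -1.11 ± 0.18 for Col4a2, and without libraries 7, 8 and 9 it was -0.65 ± 0.17 and -0.58 ± 0.21 (5 libraries against 2). In the second case neither gene was past the threshold, nor was any other of the 10 genes, and 1.88% of all tested genes were.

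Basement membranes and collagen are made in spleen by stromal, endothelial and mural cells, so markers of these cells are given beside the type IV genes. The 15 fibroblast and reticular cell markers summed to 0.653 to 5.89 CPM in C57BL/6J and 0.526 to 0.911 CPM in Rag2-/-γc-/- libraries. Dcn, Lum and Mfap5 had no count in any library, and 3 counts in the shallowest-scaled library would be 0.109 CPM. Pdgfra reached at most 0.0339 CPM, Pdgfrb 0.101 CPM and Col3a1, a fibrillar collagen of reticular fibres, 0.326 CPM, and the sum in C57BL/6J library 1 was mostly Thy1 (5.50 CPM), which T cells also express. The 15 endothelial markers summed to 21.8 to 29.7 and 11.3 to 35.8 CPM, mainly from Flt1 (6.76 to 18.6 CPM) and Vwf (1.99 to 11.8 CPM). The defining gene Cdh5 was at 0.244 to 0.869 CPM, Kdr at 0 to 0.228 CPM, Emcn at 0 to 0.0362 CPM, and Tie1 had no count. Col4a1 plus Col4a2 summed to 542 to 855 CPM in C57BL/6J libraries and to 975 to 1580 CPM in Rag2-/-γc-/- libraries. Sums over different genes are not on a common scale per cell, so no source is read from their sizes. The 9 mural markers, of which all had counts, summed to 35.9 to 106 and 26.0 to 39.7 CPM, led by Acta2 (up to 93.8 CPM). The 10 macrophage markers moved in the same direction as type IV collagen, at 293 to 749 CPM against 718 to 1280 CPM, all 10 with counts and all with negative log2 fold changes. The sums overlapped through C57BL/6J library 1, which had the lowest Col4a1 and the highest macrophage sum of its group. Most of that sum was Hmox1, which encodes a haem-degrading enzyme (269 to 545 against 621 to 1120 CPM), while the red pulp genes Spic and Cd5l stayed at or under 4.43 CPM. T cell markers (10 genes) summed to 59.6 to 113 CPM in C57BL/6J and 19.4 to 45.6 CPM in Rag2-/-γc-/- libraries, and plasma and B cell markers (8 genes) to 7.61 to 75.9 and 3.83 to 5.68 CPM, both without overlap. Most of the T cell sum was Cd8a (48.6 to 107 against 14.9 to 41.2 CPM), which some dendritic cells also express. The defining genes Cd3e and Cd3g were at 0.152 to 3.42 and 0.087 to 3.82 CPM in C57BL/6J and at most 0.0327 and 0.0253 CPM in Rag2-/-γc-/- libraries, where Trac and Cd8b1 had no count. Osteoblast markers (8 genes) summed to 134 to 195 and 70.9 to 227 CPM and megakaryocyte markers (8 genes) to 12.3 to 20.1 and 4.28 to 21.2 CPM, with overlap. The part of RNA from these cells in the differences of the 10 genes was not tested. In sorted bulk cells fewer cells of a type and less RNA per cell cannot be told apart.

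**Figure D2:**
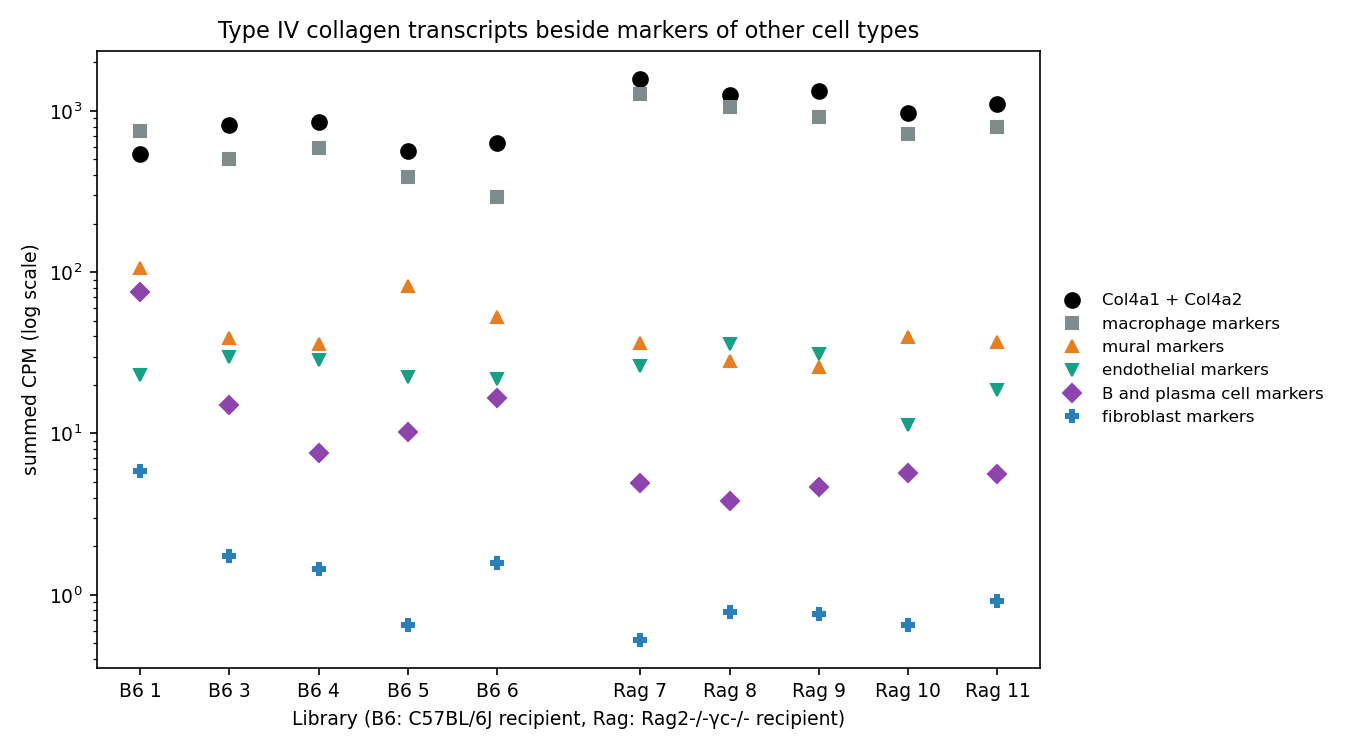
Summed CPM (vertical axis, log scale) of Col4a1 plus Col4a2 (black circles) and of 5 marker lists (other symbols) in each library (horizontal axis). The type IV pair is at 542 to 1580 CPM and the macrophage list at 293 to 1280 CPM, while the endothelial, mural and fibroblast sums are lower. Sums over different genes are not on a common scale per cell.

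Type I collagen was close to the detection limit, and of its chain genes only Col1a1 had enough counts to test. Col1a1 (chromosome 11, 94936224 to 94953042) had 19, 35, 43, 39 and 31 expected counts in C57BL/6J libraries 1, 3, 4, 5 and 6 and 22, 10, 8, 4 and 13 in Rag2-/-γc-/- libraries 7 to 11. Scaled to depth these were 0.580 to 1.09 and 0.131 to 0.373 CPM without overlap, 0.833 ± 0.183 against 0.272 ± 0.0935 CPM (SD, n = 5 each), a difference of 1.58 ± 0.30. Without libraries 7, 8 and 9 the difference was 1.82 ± 0.48, and without 10 and 11 it was 1.46 ± 0.33. Its partner Col1a2 (chromosome 6, 4504814 to 4541543) had 6, 1, 0, 2 and 2 counts against 6, 5, 3, 2 and 9, too few for the test, with sums of 11 and 25 over the groups. Counts this low cannot show whether Col1a2 differed between the groups. A count of 0 in C57BL/6J library 4 allows up to 0.0761 CPM (3 counts, counting error only). Among 8 osteoblast markers, 7 of them with a count, 4 were tested, 2 rose and none fell, with a median of 1.05. That is 50% of those tested, against 7.79% of all tested genes in either direction. DESeq2 called 2 of this list, limma-voom 1, and edgeR 3 without libraries 10 and 11 and 0 without 7, 8 and 9. Of all tested genes these settings called 14%, 7.5%, 36.7% and 1.88% in that order. Dmp1, a matrix protein gene of bone cells, was at 0.279 to 1.38 CPM in C57BL/6J and at most 0.0362 CPM in Rag2-/-γc-/- libraries (edgeR adjusted p = 0.00213), and the bone transcription factor gene Runx2 at 0.239 to 0.765 against 0.0678 to 0.261 CPM (1.82 ± 0.51; edgeR adjusted p = 0.0497). Alpl and Spp1, the most abundant of the list, did not pass, Ibsp had no count, and Sp7 and Bglap reached at most 0.017 and 0.0947 CPM. The fibroblast marker sums given above overlapped between the groups. The part of these cells in the Col1a1 difference was not tested. The deposited table holds totals per gene, so where along Col1a1 the reads fell was not analysed here. The profiles most like that of Col1a1 belonged to Bcl2l14 (0.179), the E-cadherin gene Cdh1 (0.197) and the hexokinase gene Hk3 (0.208).

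Serpinh1 (chromosome 7, 99345375 to 99353230), the chaperone that collagen-secreting cells need, was scarce. It was at 0.580, 0.592, 2.46, 0.544 and 0.403 CPM in the C57BL/6J libraries and at 0.763, 1.30, 1.05, 0.359 and 2.12 CPM in the Rag2-/-γc-/- libraries. C57BL/6J library 4 and Rag2-/-γc-/- library 11 were the high ones, and the groups overlapped throughout. The difference was -0.29 ± 0.56, and it ran from -1.08 without C57BL/6J library 4 to 0.07 without Rag2-/-γc-/- library 11. Per kilobase of exon, Serpinh1 stood at 0.375 ± 0.355 and 0.458 ± 0.271 CPM (SD, n = 5 each), while Col4a1 stood at 39.8 ± 7.46 and 69.3 ± 7.62. The profiles least far from that of Serpinh1 were those of the nuclear receptor gene Nr4a1 (0.449), Dpep2 and Armc9 (0.475 each).

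Of the alpha chain genes of prolyl 4-hydroxylase, P4ha2 was higher in every C57BL/6J library and P4ha1 overlapped between the groups. P4ha2 (chromosome 11, 54100095 to 54131665) was at 5.10, 8.32, 12.3, 11.3 and 10.4 CPM in C57BL/6J libraries 1, 3, 4, 5 and 6 and at 1.66, 2.18, 0.869, 2.32 and 3.54 CPM in Rag2-/-γc-/- libraries 7 to 11. The groups did not overlap, and the lowest C57BL/6J library (1) still lay above the highest Rag2-/-γc-/- library (11). Means of 9.48 ± 2.85 and 2.11 ± 0.98 CPM gave a difference of 2.16 ± 0.34, the largest of the 9 tested genes, which was 1.69 ± 0.36 without libraries 7, 8 and 9 and 2.57 ± 0.36 without 10 and 11. P4ha1 (chromosome 10, 59323296 to 59373304) was at 96.7, 166, 153, 167 and 166 CPM against 96.9, 87.6, 95.8, 130 and 166 CPM. C57BL/6J library 1 was as low as Rag2-/-γc-/- libraries 7 to 9, and Rag2-/-γc-/- library 11 as high as the other C57BL/6J libraries. The difference for P4ha1 was 0.37 ± 0.20 with all libraries, 0.68 ± 0.17 without libraries 10 and 11 and 0.02 ± 0.21 without 7, 8 and 9. P4ha1 had more counts than P4ha2 in all 10 libraries: the ratio of P4ha2 to P4ha1 counts was 0.0502 to 0.0803 in C57BL/6J and 0.00907 to 0.0249 in Rag2-/-γc-/- libraries. The profiles most like that of P4ha2 were those of Tmeff1 (0.367), the BMP receptor gene Bmpr1a (0.373) and the collagen receptor gene Ddr2 (0.383).

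**Figure D3:**
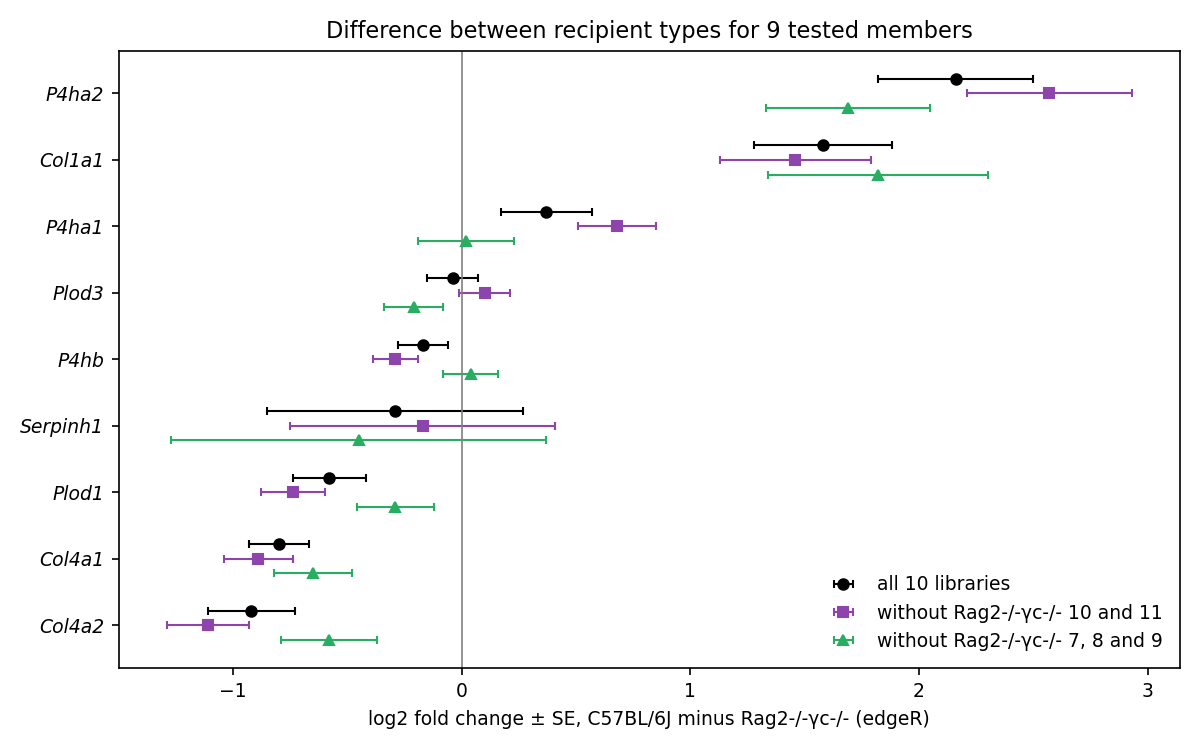
Log2 fold change ± SE (horizontal axis; C57BL/6J minus Rag2-/-γc-/-, edgeR) of the 9 tested genes with all 10 libraries (black circles), without Rag2-/-γc-/- libraries 10 and 11 (purple squares) and without 7, 8 and 9 (green triangles). P4ha2 and Col1a1 are positive and Col4a1 and Col4a2 negative in all 3, which their lack of overlap between the groups fixes in advance. P4ha1 is at 0.68 without 10 and 11 and at 0.02 without 7, 8 and 9.

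P4hb, the shared beta chain (chromosome 11, 120560298 to 120573253), was the most abundant of the 10 genes. It was at 1100, 1350, 1360, 1270 and 1330 CPM in the C57BL/6J libraries and at 1730, 1500, 1500, 1290 and 1210 CPM in the Rag2-/-γc-/- libraries. Libraries 7, 8 and 9 were the highest, and 10 and 11 lay within the C57BL/6J range. The difference was -0.17 ± 0.11 with all libraries, -0.29 ± 0.10 without 10 and 11 and 0.04 ± 0.12 without 7, 8 and 9. Since P4ha1 was low in the same libraries, the ratio of P4hb to P4ha1 plus P4ha2 counts was 15.5 to 17.5 in Rag2-/-γc-/- libraries 7, 8 and 9, against 9.74 and 7.11 in libraries 10 and 11. It was 10.8 in C57BL/6J library 1 and 7.13 to 8.24 in the other 4 of that group. The profile closest to that of P4hb was Tmed9 (0.032), a cargo receptor gene of the early secretory pathway, followed by Mfsd5 (0.037) and Mfn1 (0.039), and that of P4ha1 was as close to the ER chaperone gene Hyou1 as to Alg2 and Cdc14a (0.084 each).

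Of the lysyl hydroxylase genes, Plod1 was lower on average in C57BL/6J recipients and Plod3 was at similar levels in both groups. Plod1 (chromosome 4, 147909753 to 147936767) was at 25, 35.5, 36.6, 37.7 and 34.6 CPM in the C57BL/6J libraries and at 60.4, 61.8, 48.5, 35.7 and 47.1 CPM in the Rag2-/-γc-/- libraries. The groups overlapped only through Rag2-/-γc-/- library 10, which lay below 2 of the C57BL/6J libraries. The difference was -0.58 ± 0.16, and -0.29 ± 0.17 without libraries 7, 8 and 9. Plod1 was past the threshold in 8 of 20 alternative analyses, and lost it by limma-voom, with no count filter and without any 1 library other than Rag2-/-γc-/- 10. The profiles most like it were those of Tnks1bp1 (0.092), Pdzd8 (0.093) and the anion channel gene Lrrc8a (0.096). Plod3 (chromosome 5, 136987019 to 136996648), which also transfers sugars to hydroxylysine, was at 44.2, 60.9, 57.4, 60.4 and 57.5 CPM against 53.9, 51.0, 52.5, 61.9 and 68.2 CPM, and its difference was -0.04 ± 0.11. Here library 1 was the low one and library 11 the high one, and the sign changed to 0.10 ± 0.11 without libraries 10 and 11. The profiles most like that of Plod3 were those of Fbxl6 (0.033), Wiz (0.043) and the zinc transporter gene Slc30a6 (0.048). Plod3 shares 1003 bases with Znhit1 on the other strand, which had 755.65 to 1526.63 expected counts. Whether counting used strand is not given in the sources used here, so some reads of either gene may be assigned to the other. The ratio of Plod1 to Plod3 counts was 0.566 to 0.638 in all C57BL/6J libraries, 0.923 to 1.21 in Rag2-/-γc-/- libraries 7, 8 and 9, and 0.577 and 0.691 in 10 and 11.

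**Figure D4:**
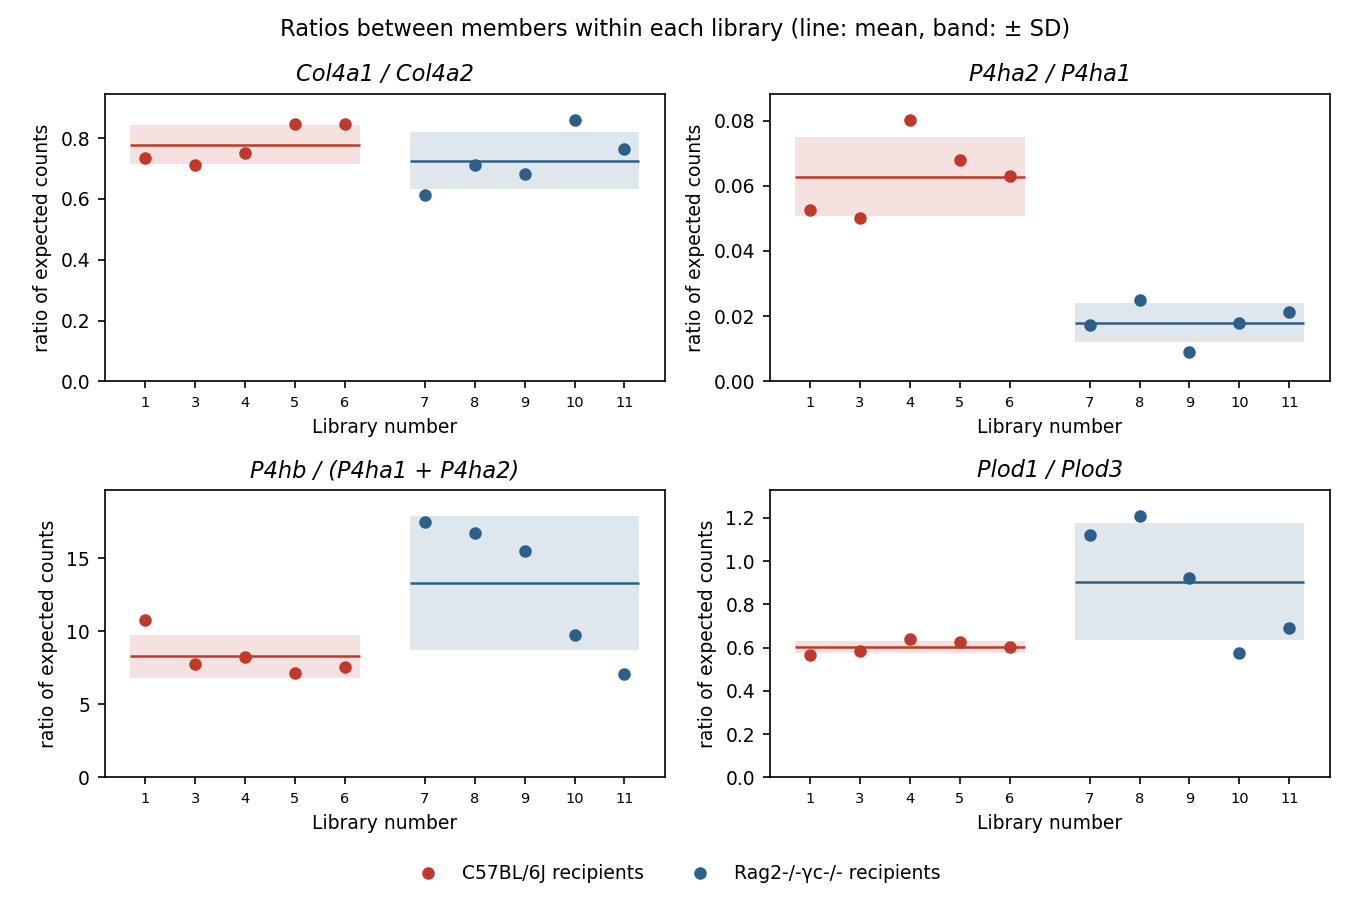
Ratios of expected counts between members (vertical axes, linear from 0) in each library (horizontal axes), C57BL/6J in red and Rag2-/-γc-/- in blue, with lines for means and bands for ± SD (n = 5). The P4ha2 to P4ha1 ratio separates the groups, whereas P4hb to its alpha chains and Plod1 to Plod3 are high in libraries 7, 8 and 9 and near the C57BL/6J values in 10 and 11.

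Per kilobase of exon (GENCODE M21 exons merged per gene), the order of levels in C57BL/6J libraries was P4hb at 447 ± 36.7 CPM per kb, Col4a2 at 58.2 ± 13.5, Col4a1 at 39.8 ± 7.46, P4ha1 at 36.2 ± 7.32, Plod3 at 12.4 ± 1.51, Plod1 at 5.01 ± 0.752, P4ha2 at 1.52 ± 0.457, Serpinh1 at 0.375 ± 0.355, Col1a1 at 0.127 ± 0.0279 and Col1a2 at 0.00486 ± 0.00575 (SD, n = 5 each). Col4a1 and P4ha1 were within their spread of each other, as were Serpinh1 and Col1a1. In Rag2-/-γc-/- libraries P4hb stood at 503 ± 70.6, Col4a2 at 110 ± 26, Col4a1 at 69.3 ± 7.62 and P4ha1 at 28.0 ± 7.97 CPM per kb, so the type IV genes were clear of P4ha1 there. P4ha2, at 0.338 ± 0.157, and Serpinh1, at 0.458 ± 0.271, were within their spread of each other in that group.

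Few other collagens were transcribed. Of 40 other collagen genes 32 had at least 1 count in some library and 7 could be tested, of which 1 rose and none fell (background 7.79%), with a median log2 fold change of -0.08 against 0 over all tested genes. Col23a1, a membrane-spanning collagen, was the one that rose, from 1.15 ± 0.199 to 2.12 ± 0.212 CPM (0.88 ± 0.19, SD and SE, n = 5 each; edgeR adjusted p = 0.017). That call was lost without libraries 7, 8 and 9 (0.73 ± 0.24; adjusted p = 0.22). The most abundant others were Col11a2, a cartilage collagen gene, at 2.66 to 10.6 against 6.40 to 12.8 CPM, and Col15a1, a basement membrane zone collagen gene, at 1.65 to 3.52 against 0.831 to 3.30 CPM. Neither passed the threshold (edgeR adjusted p = 0.504 and 0.367). The remaining type IV chains, Col4a3 to Col4a6, did not have enough counts to be tested.

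Of 28 other genes for enzymes and helpers of collagen synthesis, 13 had too few counts to test. They included the crosslinking enzyme gene Lox, at most 0.0678 CPM, Plod2, at most 0.173 CPM, and Tll1, with no count. Of the 15 tested none passed the threshold in edgeR, where 5 had an unadjusted p under 0.05. DESeq2 called 2, limma-voom 0 and limma-voom with sample quality weights 7, and edgeR called 6 without libraries 10 and 11. Of all tested genes these settings called 14%, 7.5%, 46.7% and 36.7% in that order. The galactosyltransferase gene Colgalt1, which glycosylates hydroxylysine, was at 413 against 442 CPM on average, and the prolyl isomerase gene Ppib at 346 against 331 CPM. Their differences were -0.10 ± 0.15 and 0.06 ± 0.08. The median of this list was 0.06.

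Among 11 tested genes of collagen export and turnover 1 rose and 1 fell (18.2%, against 7.79% of all tested genes in either direction). Sec24d, a coat protein of the vesicles that carry procollagen out of the ER, was at 51.0 to 61.4 CPM in C57BL/6J and 34.3 to 40.8 CPM in Rag2-/-γc-/- libraries (0.55 ± 0.09; edgeR adjusted p = 0.00428). Creb3l1, an ER-bound transcription factor known to activate collagen genes, was at 0.403 to 1.06 against 1.47 to 2.92 CPM (-1.55 ± 0.29; edgeR adjusted p = 0.00914). Neither group pair overlapped, and both calls were lost without libraries 7, 8 and 9, where 2 Rag2-/-γc-/- libraries remained. In that fit the difference was 0.60 ± 0.13 for Sec24d (adjusted p = 0.0563), no smaller than with all libraries, and -1.11 ± 0.38 for Creb3l1 (adjusted p = 0.233). Mia3, which encodes the procollagen export receptor TANGO1, and the protease gene Mbtps1 were not past the threshold (log2 fold changes -0.17 ± 0.16 and 0.12 ± 0.13).

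Of 6 tested collagen receptor genes 3 rose and none fell (50%, against 7.79% of all tested genes in either direction), with a median of 1.05. Itga2, the alpha 2 integrin chain that binds collagen, was at 2.54 to 6.39 CPM in C57BL/6J and 0.425 to 1.01 CPM in Rag2-/-γc-/- libraries (2.67 ± 0.34; edgeR adjusted p = 0.000887). Ddr2, a receptor tyrosine kinase activated by fibrillar collagen, was at 130 against 31.6 CPM on average, with ranges of 88.1 to 170 and 18.4 to 51.5 CPM (2.05 ± 0.30; edgeR adjusted p = 0.00198). Lair1, an inhibitory collagen receptor of leucocytes, was at 11.6 to 28.1 against 3.48 to 10.7 CPM (1.63 ± 0.32; edgeR adjusted p = 0.0116). Itga2 and Lair1 were past the threshold in all 20 alternatives, and Ddr2 in all but the one without libraries 7, 8 and 9 (1.89 ± 0.42; adjusted p = 0.064). Itgb1, the shared beta chain, was at 530 against 485 CPM (0.13 ± 0.11; edgeR adjusted p = 0.468).

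Of 7 tested genes for other basement membrane components 3 fell and none rose (42.9%, against 7.79% of all tested genes in either direction), with a median of -0.60. Nid2, which links laminin to type IV collagen, was at 28.1 to 65.3 CPM in C57BL/6J and 88.1 to 140 CPM in Rag2-/-γc-/- libraries (-1.34 ± 0.23; edgeR adjusted p = 0.00558). The laminin chain genes Lamb2 (-2.17 ± 0.39; edgeR adjusted p = 0.00704) and Lamb3 (-1.39 ± 0.38; edgeR adjusted p = 0.0459) were much scarcer, at most 1.77 and 7.27 CPM. The call for Lamb3 was lost without any 1 of 8 libraries (all but Rag2-/-γc-/- 10 and 11), and all 3 calls were lost without libraries 7, 8 and 9 (-0.97, -2.10 and -0.51, with adjusted p = 0.157, 0.0987 and 0.686 in the order named). Hspg2, the perlecan gene, was at 20.3 against 15.2 CPM (0.41 ± 0.16; edgeR adjusted p = 0.146). The macrophage markers given above were lower in the same recipients, and their part in this was not tested.

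**Figure D5:**
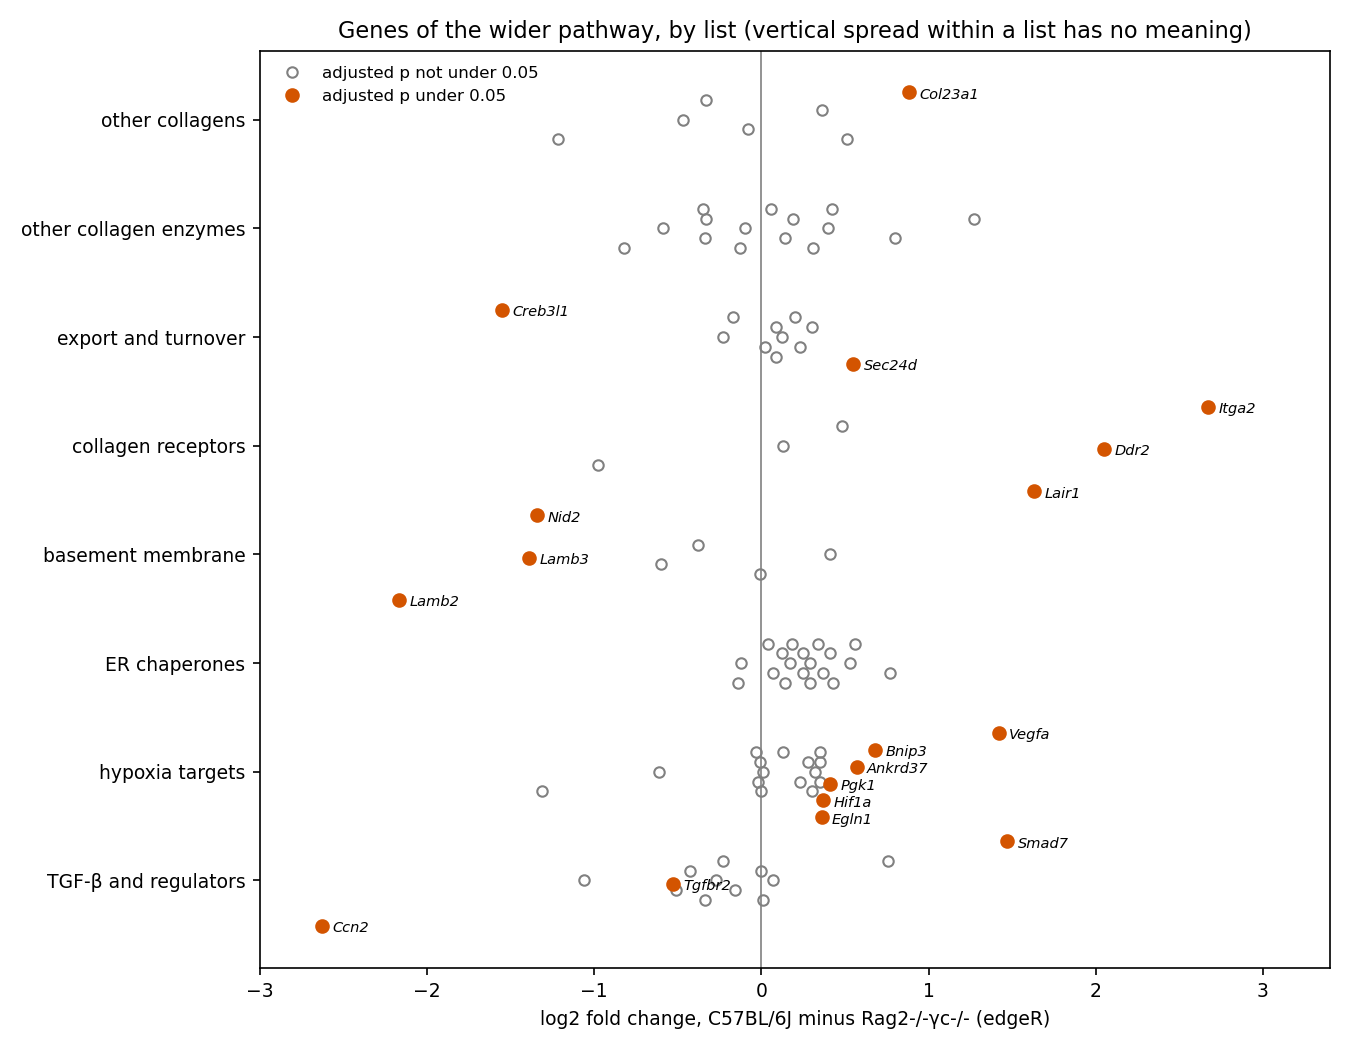
Log2 fold change (horizontal axis; C57BL/6J minus Rag2-/-γc-/-, edgeR) of each tested gene in 8 lists (rows), filled and named where the adjusted p was under 0.05 and open otherwise. The 3 called collagen receptor genes lie at 1.63 to 2.67, the 3 called basement membrane genes at -2.17 to -1.34, and no ER chaperone gene is filled.

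P4hb belongs to the ER folding machinery and the alpha chain genes are known targets of hypoxia-inducible factor, so both programmes are given. None of 19 ER chaperone and folding genes passed the threshold in edgeR (6 at an unadjusted p under 0.05), DESeq2 or limma-voom, whereas limma-voom with sample quality weights called 15 and edgeR called 11 without libraries 10 and 11. The settings with weights and without libraries 10 and 11 called 46.7% and 36.7% of all tested genes. The log2 fold changes of the chaperone and folding genes were positive in 17 of 19, with a median of 0.25, a direction opposite to that of P4hb. Hspa5, which encodes the chaperone BiP, was at 1560 against 1520 CPM (0.04 ± 0.12), and Hsp90b1 at 1490 against 1220 CPM (0.29 ± 0.17). Of 21 hypoxia-responsive genes 6 rose and none fell (28.6%, against 7.79% of all tested genes in either direction). Log2 fold changes were positive for 16 of the 21 and negative for 5, with a median of 0.30. Bnip3, a mitophagy gene, was at 72.9 to 109 against 49.1 to 61.1 CPM (0.68 ± 0.11; edgeR adjusted p = 0.00481). The oxygen sensor gene Egln1 (0.36 ± 0.07), the glycolytic gene Pgk1 (0.41 ± 0.09) and Hif1a itself (0.37 ± 0.08, call lost without C57BL/6J library 6) also rose, with edgeR adjusted p = 0.0136, 0.0173 and 0.0175. Ankrd37 (0.57 ± 0.14) and the angiogenic factor gene Vegfa (1.42 ± 0.38) passed by less (edgeR adjusted p = 0.0358 and 0.0445), and each lost its call without any 1 of 6 libraries (C57BL/6J 1, 3, 4 and 5 and Rag2-/-γc-/- 8 and 9 for Ankrd37, and C57BL/6J 3, 4 and 6 and Rag2-/-γc-/- 7, 8 and 9 for Vegfa). Aldoa and Ldha, the most abundant genes of the list, did not pass (log2 fold changes 0.28 ± 0.10 and 0.32 ± 0.10), and none of the 21 did without libraries 7, 8 and 9. The 5 negative genes included Pfkfb4 (-0.61 ± 0.17) and Ddit4 (-1.31 ± 0.60), neither past the threshold (edgeR adjusted p = 0.0518 and 0.197).

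Genes of TGF-β signalling, the best known inducer of collagen in stroma, went in both directions. Of 14 tested 1 rose and 2 fell (21.4%, against 7.79% of all tested genes in either direction), with a median of -0.25. Ccn2, a target of the pathway, was at 0.205 against 1.33 CPM (-2.63 ± 0.52; edgeR adjusted p = 0.0107), and its call was lost without libraries 7, 8 and 9 (-3.01 ± 0.67; adjusted p = 0.0652). Its ranges were 0.0305 to 0.37 against 0.852 to 1.85 CPM. A single count in C57BL/6J library 1 is 0.0305 CPM, so the C57BL/6J values were near the floor. The receptor gene Tgfbr2 was at 81.0 to 123 against 138 to 166 CPM (-0.53 ± 0.13; edgeR adjusted p = 0.0269), but was no longer past the threshold when C57BL/6J 5, Rag2-/-γc-/- 7 or Rag2-/-γc-/- 9 was omitted. Smad7, an inhibitor of the pathway, was at 3.02 to 6.96 against 0.947 to 3.34 CPM (1.47 ± 0.32; edgeR adjusted p = 0.018) and passed in all 20 alternatives. Tgfb1 was abundant and not past the threshold (585 against 685 CPM, -0.23 ± 0.11; edgeR adjusted p = 0.219). Tgfbi, a matrix protein gene, was at 239 to 447 CPM in C57BL/6J but at 163 to 1100 CPM in Rag2-/-γc-/- libraries (-1.06 ± 0.40; edgeR adjusted p = 0.131). Its difference was -1.52 without libraries 10 and 11 (adjusted p = 0.000633) and 0.16 without 7, 8 and 9 (adjusted p = 0.917).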

How the data were processed

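Poly(A)-selected RNA was sequenced as single reads from NEBNext Ultra libraries, per the labels' protocols. The authors deposited expected counts per Ensembl gene, unnormalised, 1 column per library. Cutadapt 1.11, STAR 2.5.2a, RSEM 1.2.30, edgeR and build GRCm38 are named, without roles, per the submitters' processing notes; the annotation release and strand setting are unknown here. RSEM divides reads that fit several genes, so overlapping genes and paralogs are less certain.

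Columns were matched to samples by title. Of the values in a library 15.3 to 17.3% were not whole, and all were rounded. All 20 same-group pairs of libraries differed by more than counting noise (chi-square divided by its degrees of freedom, 8.64 to 207). The test was edgeR 4.0.16 (R 4.3.3), quasi-likelihood, TMM, filterByExpr (minimum count 10, total 15), group only, Benjamini-Hochberg over 13966 genes at 0.05; SE is the coefficient over the square root of F. The test was also tried on simulated counts with 200 genes changed and no subgroups of libraries. It recovered 12% of 1.5-fold, 57.5% of 2-fold and 92% of 4-fold changes. Of the genes called, 7.69%, 5.74% and 4.17% were false in that order. Genes with small differences that did not pass may therefore have been missed. Alternatives used DESeq2 1.42.0, limma-voom 3.58.1, other factors, filters and dispersions, and left out libraries.

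The 10 genes and all lists were chosen with earlier results of these data known. Named besides the 10 are, per list, genes past the threshold (at most 6) and the 2 most abundant, and per gene the 3 closest mean-centred log2 profiles (CPM + 0.1). All 256 entries of the other lists matched, 15 by older symbol or identifier. Marker lists of osteoblasts, megakaryocytes, plasma cells and T cells were summed too. One gene of the TGF-β list is not reported here. The leucocyte check was added after the data were examined.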

Additional observations from a re-analysis of the deposited data

Results flagged for a closer look

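For 12 of 92 groups of 5 values, 1 library lay so far from the other 4 that its gap to the nearest exceeded 0.71 of the range. Chance alone flags about 1 in 20 such groups.

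C57BL/6J library 1 was the distant one for 8 genes. Among the 10 collagen genes it had 96.7 CPM of P4ha1 (153 to 167 in the other 4 libraries of its group), 25 CPM of Plod1 (34.6 to 37.7), 44.2 CPM of Plod3 (57.4 to 60.9) and 0.183 CPM of Col1a2 (0 to 0.0503, from 6 counts or fewer). It also had 83.3 CPM of Mia3 (136 to 155), 83.4 CPM of Mbtps1 (134 to 136), 1120 CPM of Hspa5 (1630 to 1730) and 2070 CPM of Aldoa (1510 to 1610). The same library had the low mitochondrial share of 1.34% and the highest plasma cell and B cell marker sum, 75.9 CPM. Their part in these values was not tested.

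Serpinh1 was at 2.46 CPM in C57BL/6J library 4 against 0.403 to 0.592 in the other 4. Ppib was at 400 CPM in C57BL/6J library 6 against 327 to 338, and Lamb2 at 0.674 CPM in C57BL/6J library 5 against 0.151 to 0.296. Itgb1 was at 521 CPM in Rag2-/-γc-/- library 8 against 469 to 482.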

How the results depend on the processing

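There were 20 alternatives. The test called 464 genes higher and 624 lower with all libraries, 803 and 1155 by DESeq2, 3306 and 3217 by limma-voom with sample quality weights, 2786 and 2518 without libraries 10 and 11, and 148 and 127 without 7, 8 and 9. Leaving out 1 library at a time gave 275 to 1076 higher and 304 to 1323 lower, with 1 or both counts moved by over 1.5 times without C57BL/6J 3, 5 or 6 or Rag2-/-γc-/- 7, 8, 9 or 10. Of the other collagens and collagen enzymes 1 was higher and 0 lower with all libraries. DESeq2 gave 2 and 1, limma-voom with weights 5 and 4, the fit without libraries 10 and 11 gave 4 and 4, and without 7, 8 and 9 it gave 0 and 0. With no count filter 1 was lower, and leaving out 1 library gave 1 to 2 higher. Without libraries 7, 8 and 9 the log2 differences moved to -0.58 for Col4a2, 0.04 for P4hb and -0.29 for Plod1. Signs turned for Colgalt1 (-0.16 to 0.00 when 1 library was left out, the latter without C57BL/6J library 1, and 0.15 without libraries 7, 8 and 9) and Tgfbi (0.16 without 7, 8 and 9). The cause was not tested. Col4a1, Col4a2 and P4ha2 were past the threshold in 19 of 20 alternatives and Col1a1 in 18. The alternatives called 1.88% to 46.7% of all tested genes. With a filter of at least 1 CPM in 5 libraries Col1a1 was not tested. These settings refit the same data for genes chosen with this contrast known, so nothing is read from the tally. No paired analysis was possible because the labels give no pairing of libraries between the groups. Col1a1, Col1a2 and Serpinh1 are limited by depth, with at most 43 counts of Col1a1 and 9 of Col1a2 in a library.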
